A study of Mus musculus with 15 samples.

Results

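The genes described here encode the proteasome of the mouse: the subunits of its core and regulatory particles, its activators and inhibitor, and the factors that assemble it. They were taken from the table of log2 values by their symbols, as every gene whose single symbol starts with Psma to Psmg and a digit, together with Pomp. Of 14860 genes in the table, 43 met the rule. Psmc3ip, a gene of meiotic recombination, and Psme3ip1, which encodes a partner of the activator subunit Psme3, match by spelling only and were kept apart, which left 41 proteasome genes. These comprised 5 genes of the alpha ring of the core, 5 of its constitutive beta ring, 3 immunoproteasome subunits (Psmb8, Psmb9 and Psmb10), the thymus subunit gene Psmb11, 8 genes of the base and 8 of the lid of the regulatory particle, 3 activator genes, the inhibitor gene Psmf1, 4 assembly factors of the core and 3 of the base. Another 8 proteasome genes (Psma4, Psma5, Psma8, Psmb3, Psmb5, Psmd1, Psme2 and Psmg4) had no probe set with a single symbol of their own and were not analysed here.

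Sca1+ mononuclear cells of the spleen, isolated with magnetic beads, were profiled on Affymetrix exon arrays, with 1 array per mouse and 3 mice in each of 5 groups, all in the FVB/N strain. MRP8NRASD12, MRP8hBCL2 and tethBCL2 mice were single transgenic founders. MRP8NRASD12 mice carry human mutated NRASD12 under the MRP8 promoter, MRP8hBCL2 mice carry human BCL2 under the same promoter, and tethBCL2 mice carry human BCL2 under a tetracycline operator driven by a transactivator with the MMTV LTR. The HR-MDS mice (high risk myelodysplastic syndrome) are MRP8NRASD12/tethBCL-2 double transgenics. The AML post MDS mice (acute myeloid leukaemia after myelodysplastic syndrome) are MRP8[NRASD12/hBCL-2] double transgenics and were taken at a younger age than the HR-MDS mice. GEO's labels give the disease state AML to all 15 samples, founders included. Each difference is between transgenic groups, since the FVB/N controls are not analysed here, and the human transgenes could not be read from the mouse symbols.

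The proteasome degrades proteins tagged with ubiquitin. Its core is a barrel in which 2 alpha rings gate the entry and 2 beta rings hold the proteolytic sites, and the regulatory particle on its end recognises, unfolds and threads the substrate, with a base of ATPases and a lid that removes ubiquitin. In cells exposed to interferon, and constitutively in many blood cells, Psmb8, Psmb9 and Psmb10 replace the catalytic subunits Psmb5, Psmb6 and Psmb7, which changes the peptides offered to MHC class I. Proteasome inhibitors are drugs of blood cancers.

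The mouse numbers in the sample titles fell into separate series. The 9 arrays of MRP8NRASD12 (8157, 8158 and 8159), tethBCL2 (7758, 7465 and 7466) and HR-MDS (8111, 8019 and 8398) had high numbers, from 7465 to 8398, and the 6 arrays of MRP8hBCL2 (3012, 3386 and 3391) and AML post MDS (3622, 3626 and 3518) had low ones, from 3012 to 3626. Each group lies in 1 series, so a genotype and the number series cannot be told apart in any comparison across them. The Y-linked genes read low in the 3 MRP8NRASD12 arrays and in AML post MDS 3518 (medians 3.86 to 4.28) and high in the other 11 (8.42 to 9.46), so that sex and genotype cannot be told apart in comparisons with MRP8NRASD12. Per-array medians over all genes lay between 6.73 and 7.10. Bulk RNA cannot tell fewer cells of a type from less RNA per cell. The Sca1 gene itself had no single-symbol probe set, and the B cell marker list, with array medians of at least 11.05, read high in every group.

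Promoters of 5 members are shown, as RefSeq gives them on GRCm38.p6 (250 bases before to 50 after the start). Pomp, Psmc2 and Psmd12 were among the genes that read lowest in the low-numbered mice, Psme3 among those that read highest there, and the Psmb9 window overlaps that of Tap1. Capitals mark CCGGAAG, a core of the sites of ETS factors, CCAAT, the box bound by NF-Y, and TGACNNNGC, a form of the antioxidant response element that Nfe2l1 and Nfe2l2 recognise, each on either strand. CCGGAAG was chosen after the sequences were seen.
Pomp (chr5:147860378-147860677, plus strand): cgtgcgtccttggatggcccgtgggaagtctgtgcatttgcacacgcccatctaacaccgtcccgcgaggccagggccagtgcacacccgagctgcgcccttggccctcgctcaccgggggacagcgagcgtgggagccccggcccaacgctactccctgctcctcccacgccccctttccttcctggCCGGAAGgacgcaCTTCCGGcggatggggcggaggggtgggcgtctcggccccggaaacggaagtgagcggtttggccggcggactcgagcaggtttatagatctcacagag
Psmc2 (chr5:21785025-21785324, plus strand): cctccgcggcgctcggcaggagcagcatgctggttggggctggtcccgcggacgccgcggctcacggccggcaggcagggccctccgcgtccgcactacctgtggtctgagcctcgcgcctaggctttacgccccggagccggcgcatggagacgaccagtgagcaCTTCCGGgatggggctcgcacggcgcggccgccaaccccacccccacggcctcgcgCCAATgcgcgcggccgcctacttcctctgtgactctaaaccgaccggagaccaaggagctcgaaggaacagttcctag
Psmd12 (chr11:107479278-107479577, plus strand): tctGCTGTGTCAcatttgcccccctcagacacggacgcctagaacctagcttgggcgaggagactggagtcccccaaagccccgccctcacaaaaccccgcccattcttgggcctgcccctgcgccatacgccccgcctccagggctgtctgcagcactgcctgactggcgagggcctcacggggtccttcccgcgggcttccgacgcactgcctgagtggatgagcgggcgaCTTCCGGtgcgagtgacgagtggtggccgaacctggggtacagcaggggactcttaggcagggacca
Psme3 (chr11:101315963-101316262, plus strand): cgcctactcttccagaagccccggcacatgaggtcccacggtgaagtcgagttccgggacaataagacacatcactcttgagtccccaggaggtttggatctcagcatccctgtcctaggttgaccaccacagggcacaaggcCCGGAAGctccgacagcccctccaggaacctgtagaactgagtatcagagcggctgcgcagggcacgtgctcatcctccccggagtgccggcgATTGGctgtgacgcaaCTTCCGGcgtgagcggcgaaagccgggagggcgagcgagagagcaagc
Psmb9 (chr17:34187281-34187580, minus strand): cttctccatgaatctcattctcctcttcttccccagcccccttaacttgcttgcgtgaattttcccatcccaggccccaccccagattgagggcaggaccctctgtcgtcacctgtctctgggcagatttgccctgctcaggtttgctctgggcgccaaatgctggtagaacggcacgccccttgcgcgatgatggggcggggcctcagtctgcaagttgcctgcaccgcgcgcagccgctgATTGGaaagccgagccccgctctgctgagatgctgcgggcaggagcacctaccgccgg

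A window was found for 34 of the 41 genes (36 windows in all). CCGGAAG stood in 16 of the 36 (44.4%) against 2910 of 32851 windows of all genes (8.86%), in Pomp and Psme3 at 2 positions each. As this motif was chosen after the sequences were seen, its larger share here is not a test. CCAAT was in 13 of the 36 (36.1%, against 37.4% of all windows) and TGACNNNGC in 5 (13.9%, against 12.4%), those of Psmb6, Psmc6, Psmd12, Psmd9 and Psme4. CCGGAAG was found both among the genes that read higher in the low-numbered mice (2 of 4 with a window, Psma6 and Psme3) and among those that read lower (4 of 7, Pomp, Psmc2, Psmd12 and Psmd4). These sets hold the genes that passed in both comparisons across the number series described below. Among the genes in neither set, some of which passed in either comparison alone, it stood in 9 of 23 with a window. It was thus not particular to these sets. These letters describe the windows and are not measured binding.

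The pooled SD within groups had a median of 0.153 over the genes. The means of the 3 high-numbered groups spanned a median of 0.17 (log2) over the 41 genes and 0.21 over all genes, and at most 0.42 among the 41, in Pomp. All 5 group means, these 3 included, spanned a median of 0.56 over the 41 genes and 0.43 over all genes, and at most 1.83, also in Pomp. The mean level lay between 8 and 12 for 37 of the 41. Psma3 and Psmb11, with means of 4.94 and 5.11, read low, with 20.6% and 23.2% of all genes at or below them.

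**Figure D1:**
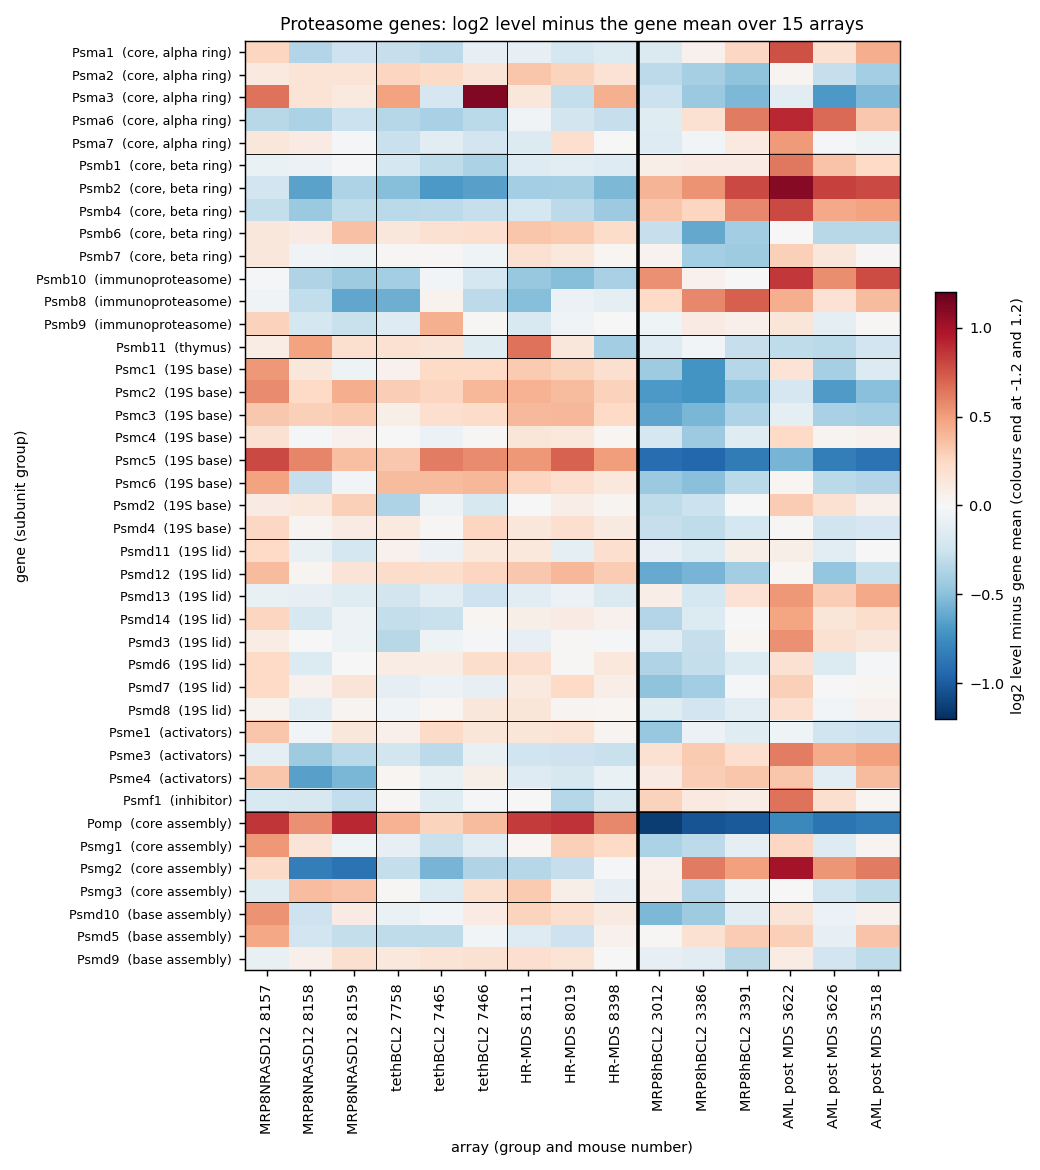
Level of each of the 41 proteasome genes in each of the 15 arrays, as the log2 level minus the gene's mean over the arrays (red above, blue below), with the genes ordered by subunit group. The heavy line separates the 9 high-numbered from the 6 low-numbered mice, across which Pomp, Psmc5, Psmb2 and Psmb4 change colour, and AML post MDS 3622 is redder than the other arrays of its group.

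The first comparison asked how the double transgenic AML post MDS mice differed from their BCL2 founder MRP8hBCL2 within the low-numbered series. Proteasome genes lay mostly above the founder, but none passed at an adjusted p under 0.05 (limma, Benjamini-Hochberg over 14860 genes), against 287 genes in all (1.93%). Of the 41, 35 (85.4%) were above 0, against 57.1% of all genes, and their median was 0.23, against 0.03. Without adjustment, 18 were higher and 0 lower at p under 0.05, against 10.1% and 5.67% of all genes. The 3 arrays of each group did not overlap for 13 genes, all higher in AML post MDS (11.0% of all genes were higher and 7.21% lower in this way).

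The lid and the beta ring held most of these genes. In the lid, all 8 genes were above 0 and 7 of 8 had an unadjusted p under 0.05, with a median of 0.35. Psmd13, a structural lid subunit, had the smallest p: it read 8.22, 7.93 and 8.31 in MRP8hBCL2 and 8.66, 8.43 and 8.60 in AML post MDS, a difference of 0.41 (SE 0.10, adjusted p = 0.0604). The groups did not overlap. Psmd14, the deubiquitinase of the lid, read 10.06, 10.25 and 10.41 in MRP8hBCL2 and 10.89, 10.56 and 10.63 in AML post MDS, a difference of 0.45 (SE 0.14, adjusted p = 0.108). Its partner Psmd7 was at 0.41 (SE 0.12, adjusted p = 0.101) and the scaffold subunit gene Psmd3 at 0.42 (SE 0.13, adjusted p = 0.104). Psmd11, another lid subunit gene, was close to the founder at 0.04 (SE 0.13).

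In the base, the 8 genes were between 0.12 and 0.37 above the founder and 3 had an unadjusted p under 0.05. Psmc4, one of the ATPases, read 9.30, 9.07 and 9.36 in MRP8hBCL2 and 9.74, 9.54 and 9.56 in AML post MDS, 0.37 higher (SE 0.10, adjusted p = 0.0730) with no overlap. Psmd2, which docks ubiquitin carriers on the base, was at 0.37 (SE 0.11, adjusted p = 0.102), from 10.42, 10.47 and 10.73 to 11.04, 10.91 and 10.79. In the beta ring the 5 genes were at 0.19 to 0.41, and the alpha ring had a median of 0.18. Psmb7, which carries the trypsin-like site, was at 0.41 (SE 0.12, adjusted p = 0.105), and its MRP8hBCL2 array 3012, at 10.88, lay above AML post MDS 3518, at 10.86. Psmb6, which carries the caspase-like site, was at 0.21 (SE 0.12, adjusted p = 0.417).

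The immunoproteasome genes did not move together. Psmb10 read 10.05, 9.55 and 9.50 in MRP8hBCL2 and 10.35, 10.06 and 10.28 in AML post MDS, the largest difference of the 41 genes at 0.53 (SE 0.16, adjusted p = 0.101). Psmb8 read 9.87, 10.21 and 10.35 against 10.07, 9.81 and 10.01, a difference of -0.18 (SE 0.19), and Psmb9 read 9.52, 9.67 and 9.63 against 9.72, 9.46 and 9.59, at -0.02 (SE 0.16). Both overlapped between the groups. Among 12 interferon response genes the median was -0.35, and Irf7, a regulator of the interferon response, fell by 0.64 (SE 0.13, adjusted p = 0.0266), the 1 gene of the list that passed. Among 9 genes of MHC class I loading none passed, and the median was -0.06.

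The activator gene Psme3, of the nuclear activator, was at 0.29 (SE 0.10, adjusted p = 0.151), while Psme1, a subunit of the interferon-induced activator, was at 0.05 (SE 0.12) and Psme4, of the large single-chain activator, at -0.05 (SE 0.21). Pomp, the chaperone that matures the beta ring, read 9.36, 9.46 and 9.49 in MRP8hBCL2 and 9.72, 9.62 and 9.65 in AML post MDS, 0.23 higher (SE 0.11, adjusted p = 0.343) with no overlap. None of the 11 genes in a list of ubiquitin receptors, deubiquitinases and other proteasome partners passed. Uchl5, a deubiquitinase of the base, was at 0.39 (adjusted p = 0.200), and Usp14, which trims ubiquitin chains on it, at 0.43 (adjusted p = 0.313).

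Within the AML post MDS group the levels were uneven. Array 3622 was the highest of its group for 38 of the 41 proteasome genes (6836 of the 14860 genes in all), and 3626 for 0. Without 3622, 29 of the 41 (70.7%) were above the founder, against 53.4% of all genes, with a median of 0.16 against 0.02. In that fit 10 were higher at an unadjusted p under 0.05, against 6.86% of all genes. Within MRP8hBCL2, array 3391 was the highest for 28 of the 41 (5854 of all genes). Without it 5 of the 41 passed, all higher in AML post MDS, and the share of all genes that passed rose from 1.93% to 5.13%. Without 3518, the only AML post MDS array with low Y-linked genes, 34 of the 41 were above 0 and the median was 0.28.

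Of 10 cell cycle markers 9 passed, all 10 were above 0, and their median difference was 1.57. Their array medians were 9.76 to 10.20 in AML post MDS and 7.68, 7.83 and 9.30 in MRP8hBCL2, the last in array 3391. Of 14 neutrophil markers 2 passed, all 14 were above 0 and 10 did not overlap, with array medians of 10.67 to 11.55 against 9.61 to 10.40. Of 6 T cell markers 0 passed, but all 6 were lower at an unadjusted p under 0.05 and without overlap. Their medians were 10.20 to 10.48 against 10.78 to 11.30. The part of these marker differences in the proteasome differences was not tested.

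**Figure D2:**
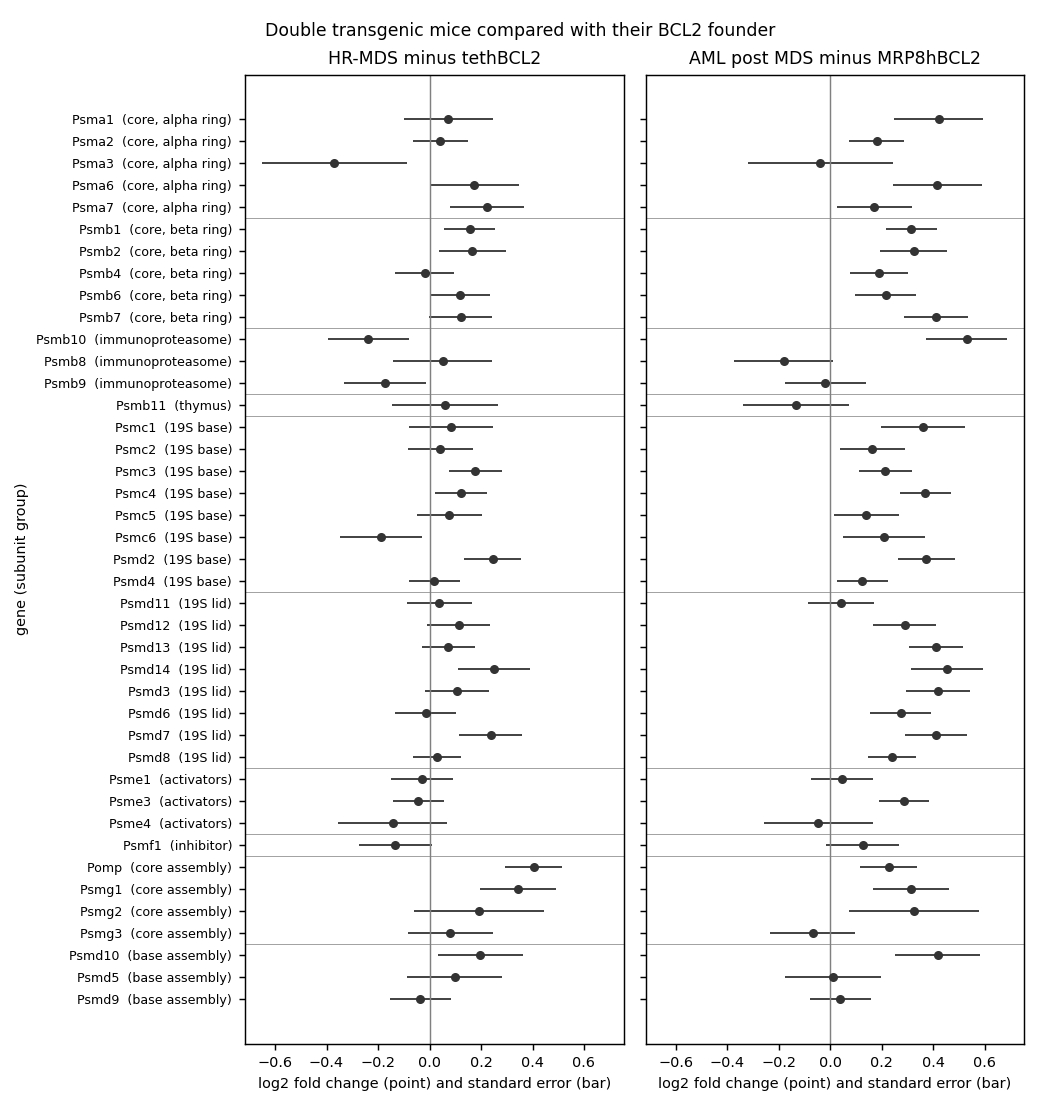
Difference of each proteasome gene between a double transgenic model and its BCL2 founder (points, log2 scale) with its standard error (bars) from the model over 15 arrays, HR-MDS against tethBCL2 on the left and AML post MDS against MRP8hBCL2 on the right. On the right 35 of the 41 points lie above 0 and on the left 30, and none passed at an adjusted p under 0.05 in either comparison.

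The same question for HR-MDS mice and tethBCL2, within the high-numbered series, gave smaller differences. None of the 41 passed, against 67 genes in all (0.451%). Of the 41, 30 (73.2%) were above 0, against 59.1% of all genes, with a median of 0.08 against 0.04, and without adjustment 3 were higher (8.40% of all genes) and 0 lower (2.91%) at p under 0.05. The groups did not overlap for 13 genes higher in HR-MDS (16.6% of all genes) and 1 lower (9.53%). Subtracting each array's median moved the median of all genes by -0.17 and that of the 41 genes to -0.10, so the sign of the difference rests on the scaling.

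The core assembly genes Pomp and Psmg1 were at the top, while the other genes of that group lay lower, down to 0.08. Pomp read 10.91, 10.76 and 10.87 in tethBCL2 and 11.33, 11.36 and 11.07 in HR-MDS, 0.41 higher (SE 0.11, adjusted p = 0.140), and Psmg1, a chaperone of the alpha ring, read 7.53, 7.36 and 7.51 against 7.65, 7.91 and 7.86, at 0.34 (SE 0.15, adjusted p = 0.389). Both were without overlap. Psmd14 of the lid and Psmd2 of the base came next, each at 0.25 and also without overlap. Psmb10 lay the other way, at -0.24 (SE 0.16, adjusted p = 0.644), from 9.09, 9.47 and 9.29 in tethBCL2 to 9.04, 8.99 and 9.11 in HR-MDS. Psmb8 read 9.04, 9.67 and 9.32 against 9.12, 9.56 and 9.51, and Psmb9 9.42, 10.00 and 9.58 against 9.39, 9.53 and 9.57, with overlap in each case. Psmc4 was at 0.12 (SE 0.10), Psmb6 at 0.12 (SE 0.12) and Psme3 at -0.04 (SE 0.10). Neutrophil markers rose far more between the same groups (12 of 14 passed, with array medians of 5.93 to 6.32 in tethBCL2 and 7.99 to 11.01 in HR-MDS). Cell cycle markers did so too (6 of 10 passed, 6.58 to 6.93 against 8.30 to 9.27). All 10 of them were higher without overlap, with a median difference of 1.75. The part of these markers in the proteasome differences was not tested.

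The change of AML post MDS from its founder minus that of HR-MDS from its own was tested in the same model, in which an offset between the number series cancels. No gene of any kind passed by limma (0%), and with an unadjusted p under 0.05 there were 3 higher and 0 lower genes among the 41, against 2.05% and 2.56% of all genes. The median over the 41 was 0.16, against -0.01 over all genes, and 34 were above 0. Psmb10 had the smallest p, with a difference of 0.77 between the 2 changes (SE 0.22, unadjusted p = 0.00413, adjusted p = 0.826). Psme3 was at 0.33 (SE 0.14) and Psmd13 at 0.34 (SE 0.15). The test thus did not show a difference between the models in their proteasome change.

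Against the NRAS founder the proteasome genes of the HR-MDS mice were close throughout. None of the 41 passed, against 2 genes in all (0.0135%), and at an unadjusted p under 0.05 there were 0 higher (2.52% of all genes) and 0 lower (3.58%). The median was 0.02 and the genes lay between -0.22 and 0.28. Psmd12, a lid subunit, had the smallest p, at 0.16 (SE 0.12, adjusted p = 0.971), reading 9.95, 9.61 and 9.73 in MRP8NRASD12 and 9.90, 9.98 and 9.88 in HR-MDS. Psmd2 was next, at -0.13 (SE 0.11, adjusted p = 0.978). In the NRAS group, array 8157 was the highest for 32 of the 41 genes (6139 of all genes).

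Pomp and Psmd2 passed between the founders of HR-MDS. Both were lower in tethBCL2 than in MRP8NRASD12, 2 of the 41 against 5.98% of all genes lower and 2.85% higher. Pomp read 11.35, 11.05 and 11.40 in MRP8NRASD12 against the tethBCL2 values above and was lower by 0.42 (SE 0.11, adjusted p = 0.0329). Psmd2 read 10.83, 10.86 and 11.01 in MRP8NRASD12 and 10.36, 10.67 and 10.54 in tethBCL2 and fell by 0.38 (SE 0.11, adjusted p = 0.0494). The arrays of these groups did not overlap for either gene. The count was 0 in a fit of these 2 groups alone and when tethBCL2 7758, 7465 or 7466 or MRP8NRASD12 8159 was left out, 1 without 8158 and 4 without 8157. Of all genes, 6.04% passed in the fit of both groups alone, and 3.98% to 21.8% with 1 array left out, the most without 8157. With each array's median subtracted, 3 of the 41 were higher and 0 lower, so no direction holds for the family here. Between the same founders all 14 neutrophil markers and 9 of 10 cell cycle markers were lower in tethBCL2, and their part in the difference of Pomp and Psmd2 was not tested. Among other lists, Nfe2l2 was lower by 0.59 (adjusted p = 0.0394) and the interferon regulator Irf1 was higher by 0.56 (adjusted p = 0.0457).

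Larger differences appeared across the number series, in both directions. All 6 low-numbered arrays lay outside all 9 high-numbered ones for 15 of the 41 genes (36.6%), 7 above and 8 below, against 13.2% of all genes (7.82% above and 5.37% below). Most of the 41 read above the median level of all genes, and the shares over all genes were not matched for level. AML post MDS against HR-MDS (both double transgenic) had 11 genes higher and 8 lower, against 14.3% and 9.90% of all genes. MRP8hBCL2 against tethBCL2 (both BCL2 founders) had 7 higher and 13 lower, against 13.5% and 9.12%. With each array's median subtracted this became 3 higher and 19 lower, against 9.42% and 16.4% of all genes. The count of higher genes between the founders thus depends in part on the scaling. These comparisons share no mice. The sign was the same in both for 37 of the 41 genes, against 11430 of the 14860 genes in all. Values within their SE of 0 were counted too. Of the 41, 15 passed in both comparisons, 7 higher (10.0% of all genes) and 8 lower (6.92%), with 0 in opposite directions. Genotype and number series cannot be told apart in either, and neither can the younger age of the AML post MDS mice between the models.

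**Figure D3:**
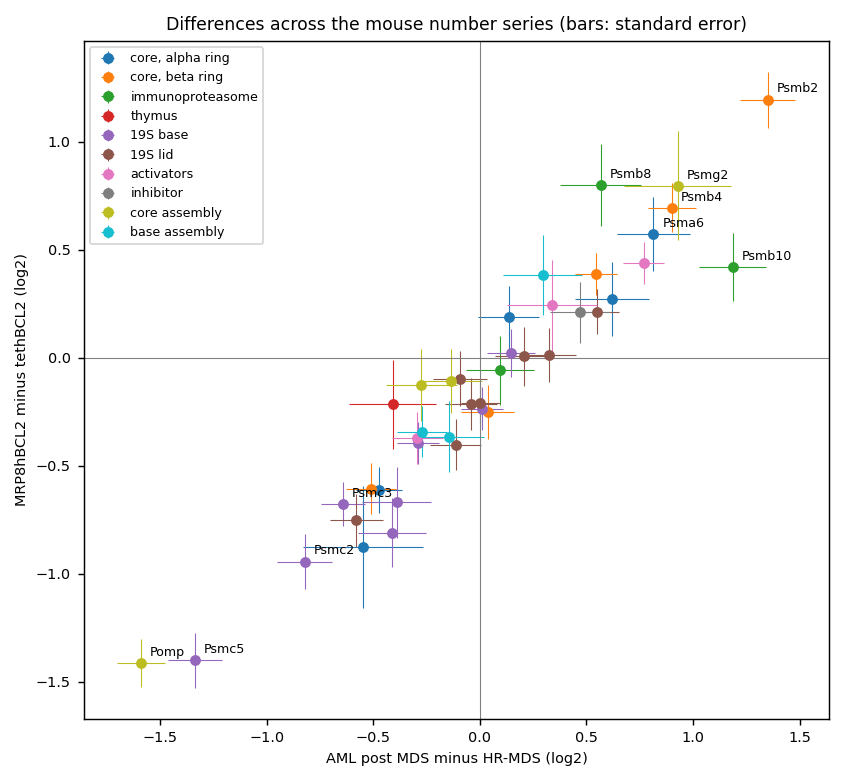
Difference of each proteasome gene between low-numbered and high-numbered mice (log2), for the double transgenic models on the horizontal axis and the BCL2 founders on the vertical axis, with standard errors as bars and colours for subunit groups. Pomp and Psmc5 lie farthest down and to the left and Psmb2 farthest up and to the right, and 37 of the 41 genes have the same sign on both axes. Over all genes, not drawn here, the sign was the same for 11430 of 14860.

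The base of ATPases and Pomp made up most of the genes lower in the low-numbered mice. Pomp read 9.36 to 9.72 in the 6 low-numbered arrays and 10.76 to 11.40 in the 9 others. It was lower by 1.59 in AML post MDS than in HR-MDS (SE 0.11, adjusted p = 1.57e-06) and by 1.41 in MRP8hBCL2 than in tethBCL2 (SE 0.11, adjusted p = 3.54e-06), that is to 0.332 and 0.376 of the level. Psmc5, an ATPase, read 7.89, 7.87 and 7.96 in MRP8hBCL2, 8.25, 7.97 and 7.92 in AML post MDS and 9.13 to 9.60 elsewhere, a difference of -1.34 and -1.40. The low-numbered and high-numbered arrays were well apart for this gene. The ATPase genes Psmc2 (-0.82 and -0.94) and Psmc3 (-0.64 and -0.68) passed in both comparisons, as did the ubiquitin receptor gene Psmd4 (-0.29 and -0.39). Psmc1 and Psmc6 passed between the BCL2 founders only, at -0.67 and -0.81, and were at -0.39 and -0.41 between the models. Psmc4 and Psmd2 did not pass in either comparison.

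Among the 8 lid genes of the symbol rule, Psmd12 alone passed in both, at -0.58 and -0.75. Sem1, a lid subunit gene that the rule does not match, passed in both too and is given below. Psmd12 read 8.97, 9.02 and 9.16 in MRP8hBCL2 and 9.60, 9.11 and 9.31 in AML post MDS, below the 9.61 to 9.98 of the high-numbered arrays, with 3622 just below the lowest of them. In the core, Psma2 of the alpha ring (-0.47 and -0.61) and Psmb6 (-0.51 and -0.61) were lower in both. Psma3, with its low level, passed between the BCL2 founders only (-0.88, SE 0.28, adjusted p = 0.0381) and was at -0.55 between the models.

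The genes higher in the low-numbered mice were mainly of the core. Psmb2, a non-catalytic beta subunit, read 10.62, 10.75 and 11.00 in MRP8hBCL2, 11.30, 11.03 and 11.01 in AML post MDS and 9.52 to 9.98 elsewhere. It was higher by 1.35 between the models (SE 0.13, adjusted p = 1.16e-05), 2.55 times the level, and by 1.19 between the BCL2 founders, 2.29 times. Psmb4, another non-catalytic beta subunit, was higher by 0.90 and 0.69, reading 10.31 to 10.85 against 9.61 to 9.84. Psmb1 (0.55 and 0.39) and the alpha subunit gene Psma6 (0.81 and 0.57) passed in both as well. Among catalytic subunits the immunoproteasome genes Psmb8 (0.57 and 0.80) and Psmb10 (1.19 and 0.42) were higher, and Psmb10 passed between the models only. Psmb9 was at 0.09 and -0.06, Psmb7 at 0.04 and -0.25, and neither passed.

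Psme3 was higher in both (0.77 and 0.44), reading 10.80 to 11.23 in the low-numbered arrays and 10.20 to 10.53 in the others. The alpha ring chaperone gene Psmg2 was higher too (0.93 and 0.80), with overlap because MRP8NRASD12 8157 read 8.83 and its group mates 7.77 and 7.72. Psme1 was lower between the BCL2 founders (-0.37) and at -0.29 between the models, and Psme4 passed in neither, at 0.34 and 0.24. Psma1, Psmd13 and the inhibitor gene Psmf1 passed between the models only, at 0.62, 0.55 and 0.47.

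**Figure D4:**
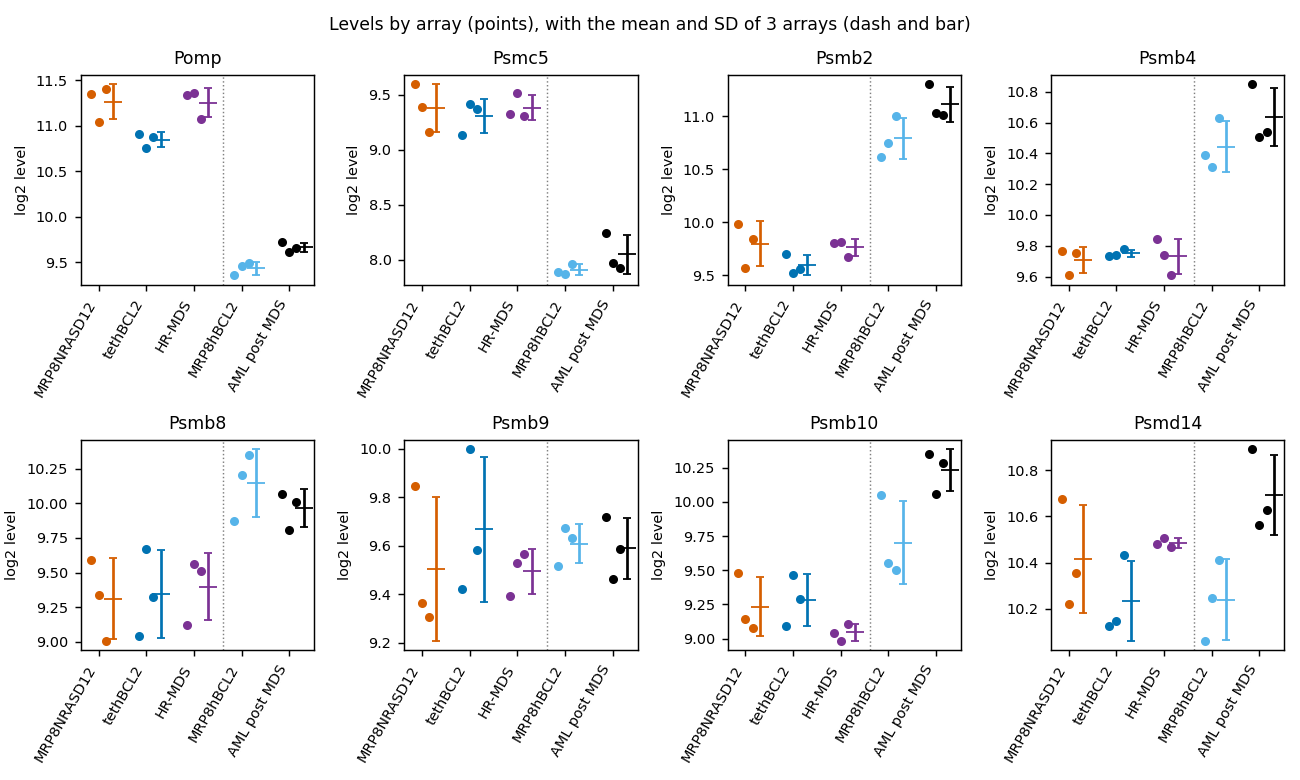
Log2 level of 8 proteasome genes in each mouse (points), with the mean and SD of the 3 mice of a group (dash and bar) and a dotted line between the high-numbered and the low-numbered groups. The low-numbered groups lie below the others for Pomp and Psmc5 and above them for Psmb2, Psmb4 and Psmb8. For Psmb10 they also lie above, but narrowly, with MRP8hBCL2 3391 at 9.50 and MRP8NRASD12 8157 at 9.48. The groups overlap for Psmb9 and Psmd14. Each axis covers its own gene's range and does not start at 0.

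Comparisons of the low-numbered groups with MRP8NRASD12, which share groups with the above, repeat part of the same arrays and are not independent of them. In AML post MDS 11 were higher and 7 lower (13.6% and 8.74% of all genes), with Psmb2 at 1.31, Psmg2 at 1.21 and Pomp at -1.60. In MRP8hBCL2 7 were higher and 16 lower (12.2% and 9.93%), and all 8 base genes were among the lower ones, between -0.33 and -1.48. Without MRP8hBCL2 3386 the count of 23 was 14, and without MRP8NRASD12 8159 it was 15, while the count over all genes was 2314 and 2434 in these fits. Between the BCL2 founders the count of 20 was 13 without tethBCL2 7466, with 2610 of all genes.

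Some partners of the proteasome, and a lid subunit gene outside the symbol rule, also differed across the number series. Sem1, which encodes the smallest lid subunit, was lower in AML post MDS than in HR-MDS (-1.01) and in MRP8hBCL2 than in tethBCL2 (-1.004), and Rad23b, a shuttle for ubiquitinated substrates, was higher by 1.13 and 0.91. Of the 11 genes in the list of receptors, deubiquitinases and other partners, which includes Sem1 and Rad23b, 3 were higher and 2 lower between the models. Between the founders these counts were 2 and 2. Of 11 genes of proteasome transcription, Nfyc, a subunit of NF-Y, was higher by 1.51 and 1.33 and Nfe2l2 by 0.93 and 1.11, and no gene of the list was lower in either. Of 9 genes of MHC class I loading, Canx, a chaperone of the endoplasmic reticulum, was higher by 0.997 and 0.830 and Tapbp, tapasin, lower by 0.51 and 0.46. Neutrophil markers differed too between the founders, with 11 of 14 higher and array medians of 9.61 to 10.40 in MRP8hBCL2 against 5.93 to 6.32 in tethBCL2, and 3 of 14 were higher between the models. No neutrophil marker separated all low-numbered from all high-numbered arrays. T cell markers did so for 3 of 6, all above, and 3 of 6 were higher between the founders, and 3 higher and 2 lower between the models. Cell cycle markers were higher for 4 of 10 between the founders and 6 of 10 between the models. Their part in the differences was not tested.

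Psmb9 and Tap1, which encodes a peptide transporter of MHC class I loading, share 275 bases of their promoter windows on opposite strands (chr17:34187306-34187580). Tap1 read 10.00, 9.52 and 9.40 in MRP8NRASD12 and Psmb9 9.85, 9.36 and 9.31. In tethBCL2 they read 9.83, 10.29 and 10.08 and 9.42, 10.00 and 9.58. The order of the 3 arrays was the same for both genes in 4 of the 5 groups, AML post MDS being the exception. Irgm1, of the interferon response list, kept the array order of Tap1 in every group. It read 9.46, 7.71 and 7.44 in MRP8NRASD12 and 8.62, 8.91 and 8.83 in tethBCL2. The shared order was thus not particular to Psmb9 and Tap1. Psmb8, close to them on chromosome 17, was higher in the low-numbered mice, whereas Psmb9 was not.

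Psme3ip1, which matched by spelling only, was higher by 0.66 and 0.85 across the series, and Psmc3ip was lower by 0.61 in AML post MDS and 0.55 in MRP8hBCL2 than in MRP8NRASD12.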

How the data were processed

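The deposited table holds a log2 value for every probe set on each Affymetrix mouse exon array. The authors analysed their arrays in EASANA, annotated from FAST DB, and the labels name build mm9. Neither the summary of probes nor the scaling between arrays is stated in these sources, so the values were taken as they stand and low ones were kept. Of 23332 probe sets, 14996 carry a single symbol, and where a gene had several of these the one with the highest mean over the arrays was kept. This choice touched no proteasome gene. Groups come from the genotype labels of the samples and mouse numbers from their titles, and 3 mice per group limit the precision.

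A mean for each of the 5 groups was fitted over all 15 arrays with limma 3.58.1 in R 4.3.3 (moderated variances, two-sided tests, Benjamini-Hochberg over 14860 genes, threshold 0.05). SE is the moderated standard error, and differences are on the log2 scale. Exact permutation of 3 arrays against 3 cannot go below p = 0.1 and is not printed per gene. The script was tested on simulated data. Alternatives were other scalings, filters, weights and tests and leaving out arrays, and the test named in the methods was run unpaired (the methods' t-test). A value within its SE of 0 has no direction.

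Genes named were Pomp, the immunoproteasome genes and their counterparts, activators, Psmd2, Psmd12, Psmd14 and Psmc4, in each comparison the 5 largest rises and falls that passed (or the 2 smallest p where none did), and up to 3 genes per other list. Other genes named beside these, and the printed promoters, were chosen after their values were seen. The members and lists were chosen with earlier results of these data known. Promoter windows are RefSeq's, matched by Entrez number.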

Additional observations from a re-analysis of the deposited data

How the results depend on the processing

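The counts of the 41 proteasome genes that passed depended on the fit. Array weights gave 1 gene for HR-MDS against tethBCL2 (5.23% of all genes passed), 4 for tethBCL2 against MRP8NRASD12 (29.1%), 2 in each direction, and 13 for AML post MDS against MRP8hBCL2 (11.8%), all higher. Quantile normalization gave 4 for AML post MDS against MRP8hBCL2 (4.60%). The methods' t-test without adjustment gave 7 for HR-MDS against tethBCL2 (16.6% of all genes), 1 for HR-MDS against MRP8NRASD12 (3.37%), 7 for tethBCL2 against MRP8NRASD12 (17.0%) and 8 for AML post MDS against MRP8hBCL2 (10.2%). With Benjamini-Hochberg adjustment it gave 0 for tethBCL2 against MRP8NRASD12 (0.511%), 1 for AML post MDS against MRP8NRASD12 (1.97%), 8 for AML post MDS against HR-MDS (9.48%) and 5 for MRP8hBCL2 against MRP8NRASD12 (2.91%). A fit of only the groups compared gave 0 for tethBCL2 against MRP8NRASD12 (6.04%) and 12 for MRP8hBCL2 against MRP8NRASD12 (11.1%). Without MRP8NRASD12 8157 and HR-MDS 8398 together, 4 passed for tethBCL2 against MRP8NRASD12 (21.0%). The cause of these changes was not tested.

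Leaving out 1 array at a time gave 0 to 4 genes for tethBCL2 against MRP8NRASD12 (592 to 3243 over all genes), 0 to 5 for AML post MDS against MRP8hBCL2 (14 to 762), 13 to 18 for MRP8hBCL2 against tethBCL2 (2517 to 3288), 15 to 18 for AML post MDS against HR-MDS (2783 to 3132), 13 to 21 for AML post MDS against MRP8NRASD12 (2582 to 4503) and 14 to 20 for MRP8hBCL2 against MRP8NRASD12 (2314 to 4901), and 0 throughout for both other comparisons and for the difference of the changes.

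Subtracting each array's median moved the median of all genes by over 0.1 in 3 comparisons. The median of the 41 genes became -0.10 for HR-MDS against tethBCL2 (all genes -0.14), 0.19 for tethBCL2 against MRP8NRASD12 (all genes 0.16) and -0.29 for MRP8hBCL2 against tethBCL2 (all genes -0.14), where 3 genes were then higher and 19 lower. Quantile normalization gave a median of -0.25 for MRP8hBCL2 against tethBCL2 and -0.12 for AML post MDS against HR-MDS, where 9 were higher and 12 lower, and 10 higher and 11 lower for AML post MDS against MRP8NRASD12. For single named genes, 2218 of the values under the alternatives stayed on their side of the threshold, 145 lost it and 56 gained it, and no gene that passed changed sign.

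No paired analysis was possible because the titles give no numbers that pair mice across the groups. Depth cannot be read from the arrays, and their number limits the precision.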

Other observations

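Heat shock genes, which answer to a loss of proteasome function in many cells, were among the lists examined. Of 6 measured, 0 passed in AML post MDS against MRP8hBCL2, with a median of -0.29, and 0 in HR-MDS against tethBCL2, with a median of -0.02. Hsph1, a cochaperone, was lower by 1.29 (adjusted p = 0.0118) in AML post MDS than in HR-MDS and by 1.63 (adjusted p = 0.00285) in MRP8hBCL2 than in tethBCL2. Of 5 genes of ubiquitin handling and the p97 segregase, Nploc4, a p97 cofactor, was higher by 0.53 and 0.47 in the same comparisons, Ube2k, a conjugating enzyme, by 0.31 and 0.53, and Ufd1, the partner of Nploc4, was lower by 0.54 and 0.45. Genotype and number series, and age between the models, cannot be told apart in these values.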
